A study of Mus musculus with 2 samples.

Results

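The cytoplasmic ribosomal protein genes are described here on a pair of arrays of intestinal TR1 cells, a CD4 T cell type that makes IL-10. Members were the genes whose probe sets carry a lone symbol of the form Rpl or Rps with a number (with the suffixes a, x, y or l allowed), plus Rpsa, Rplp0, Rplp1 and Rplp2, without pseudogene symbols and without the S6 kinases. This gave 61 genes of the 19937 genes measured, 38 of the large and 23 of the small ribosomal subunit, and they had 193 probe sets in all. A gene with several probe sets was read from the brightest of them, averaged over both samples. The choice used symbols and brightness, not the difference between samples. RNA came from 1 sample labelled wildtype and 1 labelled CD4-DNIL-10R transgenic, called impaired here, a line whose name stands for a dominant-negative IL-10 receptor driven from Cd4 sequences. Mice of both groups had received 15 μg of an antibody to CD3, clone 2C11, into the peritoneum, 2 injections on alternate days, and the cells came from the small intestine 4 or 48 hours after the last dose. The labels used here do not say which time belongs to which sample, nor the strain, sex and age of the mice, how many were pooled or how cells were sorted.

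The cytoplasmic ribosome builds every protein encoded in the nucleus. Its small subunit holds the messenger RNA and reads the codons, and its large subunit joins the amino acids and lets the new chain out through a tunnel. Ribosomal protein genes are among the most strongly transcribed genes of a growing cell. Their messenger RNAs share a run of pyrimidines at the 5′ end, the 5′ terminal oligopyrimidine or TOP motif, through which mTOR signalling and the RNA-binding protein LARP1 set how much of each message is translated. Activated T cells enlarge their ribosome pool before they divide. An array reports the amount of messenger RNA and not its translation.

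Start sites are shown because the TOP motif is a feature that the choice of members did not use. RefSeq starts on GRCm38.p6 were found for 49 of the 61 members. In 10 of these 49 genes (20.4%) at least 1 annotated start began with C followed by at least 4 bases that were each C or T, against 3.01% of the 27025 genes with a start in the same table. Each line below holds 30 bases, 15 before the start and 15 from the start on, 5′ to 3′, with the longest run of C and T in capitals. The first 6 are members with the motif at the annotated start, and the last 4 are members without it that matter for the values further on.
Rps6, chr4:86857353-86857382, minus strand: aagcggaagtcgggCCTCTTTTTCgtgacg
Rps18, chr17:33955651-33955680, minus strand: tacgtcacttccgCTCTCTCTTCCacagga
Rpl28, chr7:4792950-4792979, plus strand: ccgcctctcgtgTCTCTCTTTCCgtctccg
Rpl38, chr11:114668565-114668594, plus strand: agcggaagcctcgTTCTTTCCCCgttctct
Rps10, chr17:27635230-27635259, minus strand: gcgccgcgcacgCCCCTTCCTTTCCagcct
Rps21, chr2:180257364-180257393, plus strand: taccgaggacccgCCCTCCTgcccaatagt
Rps13, chr7:116334176-116334205, minus strand: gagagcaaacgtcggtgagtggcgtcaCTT
Rps15, chr10:80292416-80292445, plus strand: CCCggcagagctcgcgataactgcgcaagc
Rpl5, chr5:107900513-107900542, plus strand: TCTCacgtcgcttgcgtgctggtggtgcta
Rpl9, chr5:65391417-65391446, minus strand: acgcagggCCCTgacggattacaagaacgt
In Rps6 and Rps18 the run crossed the annotated start and was 10 and 11 bases long. In Rps13 and Rps15 the longest run in the window was 3 bases. An annotated start can lie some bases away from the one a cell uses, so no match says only that these letters are not at that place. The search was then widened to a C followed by 7 pyrimidines anywhere in the 20 bases before and the 20 from the start on. In it 20 of the 49 members (40.8%) and 14.5% of all genes had a match. Of the last 4 lines above, Rpl5 had such a match, and Rps13, Rps15 and Rpl9 did not.

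Other promoter letters were counted on both strands over 250 bases before and 50 bases from the start. The ETS motif CCGGAAG, bound by GABP and its relatives, was present in 19 of 49 members (38.8%) and in 9.93% of all genes. It was present in 20.4% of the 8911 genes that had a start and were past the brightness floor used below. The YY1 motif GCCATNTT was present in 9 of 49 members (18.4%), in 6.96% of all genes and in 10.2% of genes past the floor. The GC box GGGCGG was present in 29 of 49 (59.2%), against 38.2% of all genes and 67.5% of genes past the floor. The TATA letters TATAAA were in 6 of 49 (12.2%) and the E box CACGTG in 5 of 49 (10.2%), against 9.24% and 11.6% of genes past the floor and 15.7% and 8.09% of all genes, so the order turned with the background. The ETS letters on the other strand hold a short pyrimidine run, so that motif and a TOP match can overlap. Below are 100 bases just before the start of members with ETS or YY1 letters, which are in capitals. They are shown as examples, and no share of members or of all genes was counted for these 100 bases alone.
Rps21, chr2:180257279-180257378, plus strand: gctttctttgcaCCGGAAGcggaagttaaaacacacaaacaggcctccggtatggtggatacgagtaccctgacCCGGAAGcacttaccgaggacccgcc
Rpl38, chr11:114668480-114668579, plus strand: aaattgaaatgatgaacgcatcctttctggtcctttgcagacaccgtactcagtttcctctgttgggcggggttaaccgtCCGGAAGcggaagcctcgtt
Rpl28, chr7:4792865-4792964, plus strand: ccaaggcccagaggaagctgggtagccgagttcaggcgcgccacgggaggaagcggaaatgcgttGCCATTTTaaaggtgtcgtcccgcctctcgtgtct
Rps21 had the ETS letters at 2 places in this window, and Rpl38 and Rpl28 had 1 match each, to ETS and YY1.

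The arrays held 34760 probe sets with log2 RMA values, in which a step of 1 is a doubling of brightness, and medians of 6.89 (wildtype) against 6.92 (impaired). As each genotype had 1 array, there was no replicate error to judge a difference by, and no difference was tested. The T cell label was borne out by bright Cd3e, a chain of the T cell receptor complex (13.58 (wildtype) against 13.57 (impaired)), Cd4 (13.14 and 13.18) and Il10 (12.94 and 12.92). Of 10 T cell markers 9 passed the floor, 5 below 0 and 4 above. Their median difference was -0.01, and they ranged from -0.23 (Cd6) to 0.24 (Thy1). Il10ra, which encodes a chain of the IL-10 receptor, was at 9.92 and 12.30. Whether its probe set detects the transgene is not known, so it does not check the labels. Marker lists of several other cell types stood farther from 0 than the ribosomal protein genes did. Of 25 enterocyte markers 22 passed the floor and all 22 were brighter in the impaired sample (median difference 0.93, summed linear signal 25677 in wildtype against 45845 in impaired cells), as were all 11 of the 13 goblet and Paneth markers past it (0.89, 29065 and 49393) and all 9 of 13 neutrophil markers (1.84, 1955 and 6680). Of 18 pancreatic acinar markers 14 passed, and 13 of these were dimmer (-1.46, 13359 and 4971). Median differences were 0.58 for 6 macrophage markers, 0.40 for 7 of stroma and endothelium and 0.26 for 6 of plasma cells. These cells also express ribosomal protein genes, and their part in the differences below was not tested. In such bulk samples fewer cells and less RNA per cell cannot be told apart.

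The ribosomal protein genes were close to equal in both samples, with more of them slightly dimmer than brighter in the impaired one. A brightness floor of 6.91, the middle value of all probe sets when both samples are averaged, had to be reached in the brighter sample, and 58 of the 61 members and 11124 of all genes did so. Among the 58, wildtype values ran from 7.06 to 14.26 with a median of 12.37, and impaired values from 7.47 to 14.27 with a median of 12.08. Differences, always impaired minus wildtype on the log2 scale, ran from -0.79 to 0.42 with a median of -0.09 and quartiles of -0.22 and 0.01. No member, 0 of 58, differed by 2-fold or more, a size that 1.65% of genes past the floor reached. At 1.5-fold, 0 members were brighter (background 5.89%) and 1, Rps13, was dimmer (background 1.5%). Below 0 lay 41 of 58 members, 70.7%, against 49.5% of genes past the floor, and above 0 lay 17 against a background of 50.2%. The median difference of all genes past the floor was 0.00.

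Bright genes as a class leaned the same way. Of the 1529 genes with a mean of both samples at or above 10.76, the lower quartile of the members' means, 60.9% were below 0 and the median was -0.04. Among the 46 members at that brightness 33 were below 0, and their median was -0.08. Differences of 2-fold were found in 0.85% of these bright genes, of 1.5-fold downward in 0.262% and upward in 2.49%, and 39% lay above 0. With a stricter floor of 8.86, the 75th percentile, 54 members passed, 39 below 0 and 15 above, where 59.1% of the 5949 genes past it lay below 0 and 40.7% above. At that floor 2.02% of genes were past 2-fold, 1.4% were 1.5-fold lower, 4.94% were 1.5-fold higher, 18% were at least 0.25 lower and 12% at least 0.25 higher. A difference of at least 0.25 downward, a size chosen after the values were seen, was found in 12 of the 58 members, in 15.4% of genes past the floor and in 10.7% of the bright genes. A difference of at least 0.25 upward was found in 2 members, against backgrounds of 18.7% and 6.93%. After a loess curve through all genes was taken off, which removes a trend with brightness, 34 of the 58 members (58.6%) lay below 0 beside 47.6% of all genes past the floor, and the members' median was -0.04.

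**Figure D1:**
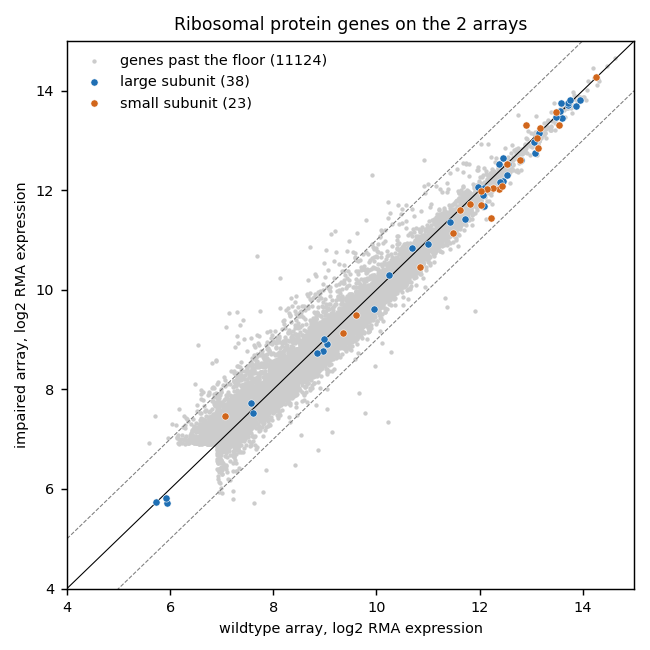
Log2 RMA expression of each gene on the impaired array (vertical) against the wildtype array (horizontal), with 11124 genes past the floor in grey and the 61 ribosomal protein genes in colour by subunit. The solid line marks equality and the dashed lines 2-fold; all 61 members lie between the dashed lines.

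**Figure D2:**
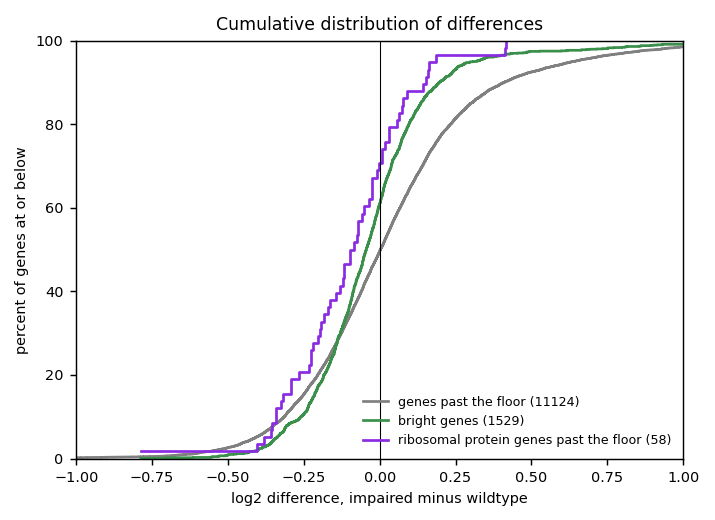
Percent of genes at or below each log2 difference (impaired minus wildtype), for 11124 genes past the floor, 1529 bright genes and 58 ribosomal protein genes; the axis is limited to between -1 and 1. At a difference of 0 the member curve stands at 70.7%, the bright genes at about 60.9% and all genes at about 49.5%.

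The stalk of the large subunit, which recruits the elongation factors, differed little. Rplp0, its base, was at 13.76 (wildtype) against 13.82 (impaired), a difference of 0.06. Rplp1 and Rplp2, the acidic proteins that extend from it, differed by -0.08 (13.05 and 12.97) and -0.07 (7.60 and 7.53). Rpl12, which binds beside the base, was at 8.98 and 9.01. All 4 stalk genes thus lay within 0.1 of equality in the probe set read for them. So did 24 of the 58 members, 3445 of the 11124 genes past the floor and 677 of the 1529 bright genes. A second probe set of Rplp1 differed by -0.20.

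Rpl5, which carries the 5S RNA into the ribosome and, when ribosome assembly fails, restrains the p53 ligase MDM2, was among the dimmer members. It was at 13.07 (wildtype) against 12.74 (impaired), a difference of -0.32. Its partner Rpl11 had no probe set with a lone symbol and is not described. The p53 response genes, 13 of 20 past the floor, had a median difference of 0.07 with 8 above 0 and 5 below. Of these 13, 0 passed 1.5-fold (background 1.5% downward and 5.89% upward). The median of the list was -0.03 after loess centring and -0.11 with the stricter floor of 8.86, so its sign depended on both choices.

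The rim of the exit tunnel, where the new chain meets targeting factors and chaperones, was represented by 4 of the 8 genes listed for it. All 4 lay below 0 in the probe set read for them. Rpl23a, a docking site for the signal recognition particle, was at 12.54 and 12.31 (-0.23). Rpl22, which is required in the development of some T cells, was at 8.84 and 8.72 (-0.12). Rpl26 differed by -0.08 and Rpl19 by -0.02. Of the 5 probe sets of Rpl19 past the floor, however, 3 lay above 0, and their mean over 5 was 0.13. Rpl4, which reaches into the tunnel, was at 12.40 and 12.17 (-0.23).

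The remaining large subunit genes spread to both sides of 0. Rpl21 was the lowest of the large subunit at 12.08 and 11.68 (-0.40), and Rpl30, which also regulates the splicing of its own transcript in yeast, was at 9.96 and 9.61 (-0.36). Rpl13 differed by -0.29, Rpl7 by -0.27, Rpl14 by -0.20, Rpl23 by -0.20 and Rpl9 by -0.19. Rpl27a (-0.17), Rpl6 (-0.14), Rpl29 (-0.13) and Rpl10 (-0.12), an X-linked gene whose protein joins the large subunit late in assembly, followed. Rpl34, Rpl8, Rpl36a, Rpl38 and Rpl36 all lay between -0.06 and 0.01. Rpl38, needed for the translation of Hox messages in the mouse embryo, was at 13.15 and 13.14. Rpl10a (0.02), Rpl28 (0.03) and Rpl27 (0.09) lay just above 0. The brighter members were Rpl24, which forms a bridge between the subunits, at 12.46 and 12.65 (0.19), Rpl41, the smallest ribosomal protein, at 13.58 and 13.74 (0.16), Rpl37a at 12.37 and 12.52 (0.15) and Rpl7a at 7.58 and 7.72 (0.14). The 35 large subunit genes past the floor had a median difference of -0.07, with 12 above 0 and 23 below.

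Small subunit genes had a median difference of -0.12, with 5 above 0 and 18 below, and held both the lowest and the highest member. Rps13, a protein of the small subunit body, was at 12.22 (wildtype) against 11.44 (impaired), a difference of -0.79 or 0.58-fold, read from 1 of its 3 probe sets, the others being near -0.25. Of genes past the floor 0.42% had a lower difference. Rps15, which sits in the head near the decoding site, was at 12.89 and 13.31, a difference of 0.42. The difference between both subunits' medians was not tested, because both come from the same pair of arrays.

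Other small subunit genes along the path of the messenger RNA went both ways. Rps3, at the entry of the channel and also involved in DNA repair, was at 12.44 and 12.09 (-0.34). Rps2, its neighbour, was at 13.18 and 13.25 (0.07). Rps28, near the exit, was at 11.82 and 11.72 (-0.10), and Rpsa, known also as a laminin receptor, was at 12.78 and 12.61 (-0.17). Of the 8 genes listed for this path 5 were measured, 3 below 0 and 2 above.

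Rps6, the target of the S6 kinases and a classical readout of mTOR activity, was nearly identical in both samples at 14.26 and 14.27, a difference of 0.01. Rps19, mutated most often in Diamond-Blackfan anaemia, a failure of red cell formation caused by ribosomal protein mutations, was at 11.62 and 11.59. Rps29 (12.37 and 12.01, difference -0.36) and Rps7 (13.14 and 12.85, difference -0.29) belong to the same disease list, of which 8 of 18 genes were measured. Of these 8, 7 lay below 0 and 1, Rpl27, above, with a median of -0.09, the value of all members. Rps21, a small protein of the subunit, was at 10.84 and 10.46 (-0.38) and Rps12 at 12.02 and 11.70 (-0.32). Rps20 and Rps9 differed by -0.23 and -0.22, Rps3a1 by -0.20 and Rps25, needed by some viral entry sites, by -0.12. Rps15a, Rps10, Rps14 and Rps4x lay between -0.10 and 0.00, and Rps18 was at 0.08. On the X chromosome 3 members were measured, Rpl10, Rpl36a and Rps4x, all between -0.12 and 0.00.

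**Figure D3:**
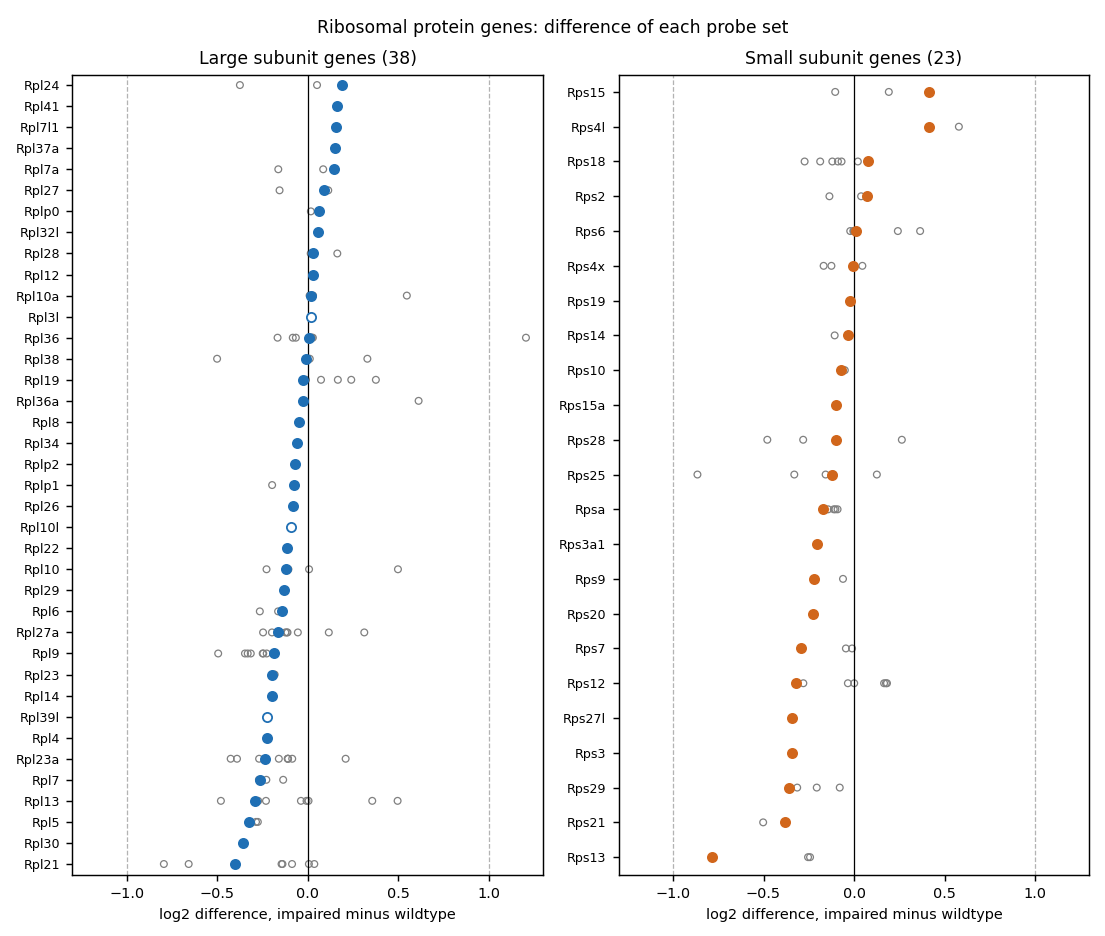
Log2 difference (impaired minus wildtype, horizontal) of every probe set of the 61 ribosomal protein genes, large subunit on the left and small subunit on the right. Filled coloured points are the probe set that stands for the gene, open coloured points the 3 genes under the floor, grey rings the gene's other probe sets, and dashed lines 2-fold. Only 1 ring, a dim probe set of Rpl36 at 1.20, lies past a dashed line. Among the filled points of the small subunit, Rps13 (-0.79) and Rps15 (0.42) are outermost. Rings of Rps25 (-0.865) and Rps4l (0.58) lie beyond them.

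Paralogs with restricted or little known use stood on both sides. Rpl3l, the striated muscle form of Rpl3, was at 5.73 and 5.74. Rpl10l and Rpl39l, retrogene-like forms used in the testis, were at 5.91 and 5.82 and at 5.94 and 5.72. These 3 were the members under the floor in both samples, and a dim RMA value does not tell low expression from background. Rps27l, a paralog of Rps27 that p53 can induce, was at 11.48 and 11.14 (-0.34). Rpl7l1, a nucleolar paralog of Rpl7, was at 10.68 and 10.84 (0.16). Rps4l was at 7.06 and 7.47 (0.41), close to the floor. Its second probe set, under the floor in both samples at 6.25 and 6.83, differed by 0.58. Rpl32l differed by 0.06. Without the 4 paralogs past the floor the members' median was -0.10, with 40 of 54 genes below 0.

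Many of these genes had several probe sets. Ribosomal protein genes have left large numbers of processed pseudogenes in the genome, and whether the further probe sets lie on such copies was not tested. Of the 61 genes 38 had more than 1 probe set and Rpl23a had the most, 10. Such probe sets may share target RNA and sequence, so they are not replicates, but they show how far the difference of a gene depends on the probe set read. In 36 genes with at least 2 probe sets past the floor (159 probe sets), the standard deviation was 0.23 within a gene and 0.17 between gene means, and 18.2% of the variance lay between genes. With only the 114 probe sets (33 genes) whose mean was at least 10, the within-gene value was 0.14 and the share between genes 32.6%, and at a mean of at least 12 (52 probe sets, 16 genes) they were 0.13 and 38.1%. In each of these 3 sets the spread within a gene was at least as large as that between genes.

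Probe sets of a gene lay on the same side of 0 in a minority of members. Among the 28 members with at least 3 probe sets past the floor, 8 had all of them below 0, 2 had all above 0 (Rpl28 and Rpl10a) and 18 were mixed. Of 105 other genes with at least 3 such probe sets, 32 had all below and 17 all above 0. The number of probe sets per gene was not matched between members and other genes, and the shares were not tested. Rpl9, a protein near the base of the stalk, had 8 probe sets, all dimmer in the impaired sample, with differences from -0.50 to -0.19 and a mean of -0.30. Rpl5 had 3 past the floor at -0.32, -0.32 and -0.29, and another, under the floor, was at -0.28. Rpl7 had 4 from -0.27 to -0.14, Rps29 had 4 from -0.36 to -0.08, and Rpsa had 5 from -0.17 to -0.09. The other 3 with all below 0 were Rpl6, Rps7 and Rps13. In Rps7 the chosen probe set was at -0.29, while the others were near 0, at -0.045 and -0.011.

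The lowest and the highest member rested on 1 probe set each. The other probe sets of Rps13 were at 11.84 and 11.60 (-0.24) and at 9.84 and 9.59 (-0.25), so its mean over 3 was -0.43. Those of Rps15 were at 12.75 and 12.94 (0.19) and at 12.33 and 12.23 (-0.10), so that the sign changed between them. In Rpl21, 8 probe sets past the floor ran from -0.80 to 0.04. The 6 of Rps25 ran from -0.865 to 0.126, the 9 of Rpl13 from -0.48 to 0.50 and the 4 of Rpl38 from -0.50 to 0.33. In Rps12, 4 of 6 lay above 0 although the chosen one was at -0.32. For Rps6, 7 probe sets past the floor ran from -0.02 to 0.37, and the 4 brightest lay between -0.02 and 0.01. Rpl36 had 8, of which 7 lay between -0.17 and 0.03, and a dim one, at 7.21 (wildtype) against 8.42 (impaired), was over 2-fold brighter, by 1.20.

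Probe sets whose annotation gives several symbols were outside the choice of members. There were 207 with at least 1 ribosomal protein symbol of the same pattern among them, and they are counted without names. Of these, 185 passed the floor, and their median difference was -0.02, with 102 below 0 and 83 above, 1 past 2-fold in each direction. Of genes past the floor 1.65% were past 2-fold in either direction. The 181 probe sets of members past the floor had a median of -0.10, with 124 below 0 and 57 above. These 2 classes pooled had a median of -0.05. For 17 further symbols of the pattern, among them Rpl3, Rpl11, Rpl22l1, Rps26 and Rps27, the several-symbol probe sets were the source of any value, and so they are not described.

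Members with the TOP motif at an annotated start overlapped with the other members in their difference. The 10 of them, all past the floor, had a median difference of -0.04, with 6 below 0 and 4 above, and ranged from -0.38 (Rps21) to 0.08 (Rps18). The 36 members past the floor with a start but without the motif there had a median of -0.11, with 25 below and 11 above. Over all genes past the floor that had a start, the medians were 0.01 for 265 genes with the motif and 0.00 for 8646 without. With the wider search the order of the member medians was turned round, at -0.08 for 20 with a match and -0.06 for 26 without. A list of 21 symbols other than the members, taken to carry the TOP motif but not chosen by the search above, had 16 past the floor. Their median was -0.01 (0.03 after loess centring), with 7 above 0 and 9 below. The list includes Fau and overlaps with the lists of translation factors described below. Eef1a1, the main elongation factor, was at 14.21 and 14.25 (0.04), Eef2 at 13.61 and 13.68 (0.07), and Tpt1, an abundant TOP message, at 13.93 and 13.86 (-0.06). Nap1l1, a histone chaperone, was the farthest from 0 (-0.32). Fau, whose product is cut into a ubiquitin-like part and the small subunit protein eS30, was at 13.44 and 13.41 (-0.03).

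Genes that build ribosomes had a lower median than the ribosomal proteins themselves, a difference that was not tested. Of 93 ribosome biogenesis genes past the floor (95 listed), 72 were below 0 and 20 above, with a median of -0.16. At least 1.5-fold lower was 1 of them (background 1.5%), and at least 1.5-fold higher was 1 (background 5.89%). Riok1, a kinase of late small subunit assembly, was at 9.83 and 9.22 (-0.60), Ddx47, a helicase, at 10.25 and 9.72 (-0.53), and Mrto4, a large subunit assembly factor, went the other way at 8.84 and 9.52 (0.68). RNA polymerases I and III make ribosomal RNA and transfer RNA. The list of their subunits and of factors that act with or on them, Myc among these, had a median of -0.13 over 37 genes. Of the 37, 23 lay below 0 and 13 above, led by Taf1b (-0.62), Polr3g (-0.60) and Polr3d (0.56). The chaperones and importers of ribosomal proteins had a median of -0.06 over 14 (-0.01 after loess centring), with Tsr2, which escorts Rps26, at -0.34 and Ipo4 at 0.31. Host genes of small nucleolar RNAs had 4 members past the floor, 3 below 0, with Gas5 at 11.05 and 10.83 (-0.22) and Snhg5 at -0.23.

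Translation factors and mitochondrial ribosomal proteins had medians below 0 too. Initiation factors had a median of -0.11 over 34 genes (23 below 0, 11 above), from Eif5b, which joins the subunits, at -0.42 to Eif2b2 at 0.32. Elongation and release factors, listed together with related and mitochondrial ones, had a median of -0.13 over 17 genes. Of the 17, 9 lay below 0 and 8 above. Farthest from 0 were Eef1e1 (-0.43), Etf1, the release factor that reads stop codons (-0.42), and Gspt1, its partner (-0.34). The 77 mitochondrial ribosomal protein genes, chosen by symbols beginning with Mrpl or Mrps and all past the floor, had a median of -0.10, with 49 below 0 and 28 above. They ranged from -0.68 (Mrps36) to 0.49 (Mrpl12), beside -0.79 to 0.42 for the cytoplasmic ones. At least 1.5-fold lower were 2 of the 77 (background 1.5%), and 0 were at least 1.5-fold higher (background 5.89%). After loess centring the medians were -0.05 for initiation factors, -0.08 for elongation and release factors and -0.07 for mitochondrial ribosomal proteins, beside -0.04 for the cytoplasmic ones. With the mean of the probe sets, that of elongation and release factors was -0.07.

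Genes of mTOR and S6 kinase signalling, which act on TOP messages and on Rps6, had a median of -0.01 (0.01 after loess centring) over 29 genes, 16 below 0 and 12 above. Rheb, the GTPase that switches mTORC1 on, was at 10.93 and 10.05 (-0.88). Eif4ebp1, a repressor of cap-dependent initiation that mTOR inactivates, was at 8.71 and 9.39 (0.68), and Deptor, an mTOR inhibitor, at 7.39 and 8.08 (0.69). These were the 3 members of the list past 1.5-fold, a size that 1.5% of genes reached downward and 5.89% upward. Larp1 was at 10.48 and 10.45 (-0.02) and Rps6kb2, an S6 kinase, at 9.06 and 9.13 (0.07). Myc, which drives ribosomal genes in growing cells and was counted in the RNA polymerase list above, was at 10.82 and 11.23 (0.41).

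**Figure D4:**
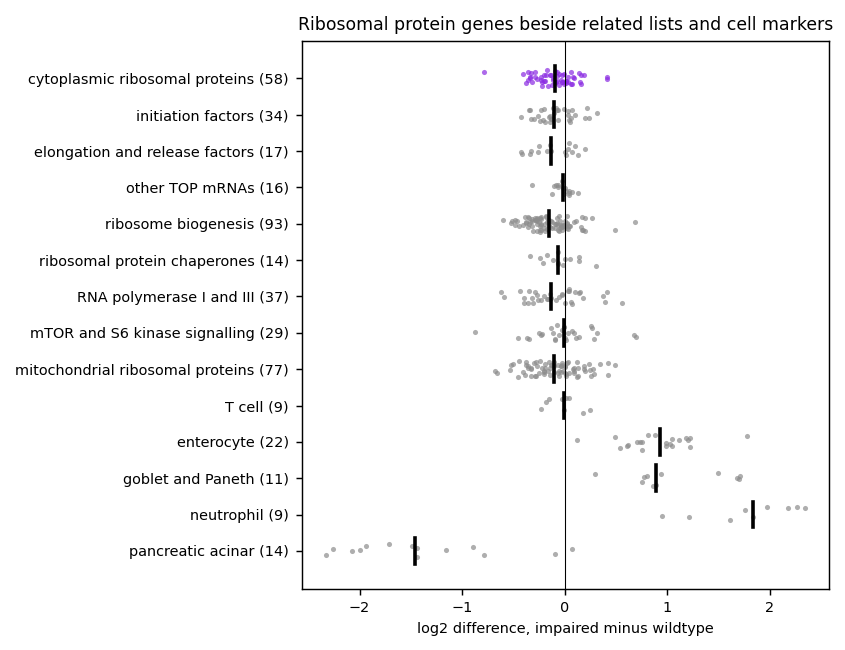
Log2 difference (impaired minus wildtype) of each gene past the floor, 1 point per gene with random vertical spread, for the ribosomal protein genes (purple), related lists and markers of cell types; black bars are medians and numbers in brackets are genes. Medians of the plotted lists from cytoplasmic to mitochondrial ribosomal proteins lie between -0.16 and -0.01, while enterocyte, goblet and Paneth, and neutrophil markers lie between 0.89 and 1.84 and acinar markers at -1.46.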

How the data were processed

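RNA of 1 wildtype and 1 impaired sample was isolated in TRIzol LS, copied with an oligo(dT) primer and hybridised to an Affymetrix array, per the labels' protocols. The authors deposited log2 values made with affy and RMA, per the submitters' processing notes: background correction, equal probe distributions and a summary per probe set. Their versions and the build: not given in the sources used here. RMA compresses folds of dim probe sets, and the brightest ones can be near saturation. Both columns of the deposited table were used as they stand, and the number of arrays limits their precision.

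Of 34760 probe sets, 21640 had 1 gene symbol in GEO's platform annotation, 1321 several and 11799 none. Entrez identifiers tied all 61 members to RefSeq (GRCm38.p6), and 0 symbols changed. No coordinates are given for probe sets, and the start sites come from RefSeq. Genes were described by the log2 difference, with no test, and counted at 2-fold. Members and lists were chosen with earlier results of these data known. Named with values were the 8 highest and 8 lowest members, those under the floor, members with set roles, up to 3 genes farthest from 0 in each related list and others chosen after their values were seen. Alternatives were loess (span 0.4) and median centring, 32 added on the linear scale, other choices of probe set, other floors, 1.5-fold and other memberships. Scripts were tested on simulated data and ran on Python 3.11.15, numpy 2.4.6, pandas 2.3.3, statsmodels 0.14.6 and matplotlib 3.10.9.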

Additional observations from a re-analysis of the deposited data

How the results depend on the processing

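The members' median difference stayed below 0 under the 13 alternatives run for it, of which the 1.5-fold rule cannot move a median, between -0.10 and -0.04. Under the 11 run for the subunits, their medians stayed below 0 (large -0.08 to -0.03, small -0.21 to -0.07). It was closest to 0 after loess centring, and -0.05 with the probe sets of several symbols added, an alternative chosen after seeing the data. Below 0 lay 34 to 43 members in every alternative but one: with single-probe-set genes only, 15 lay below 0 and 5 above, because 20 genes were left. No member passed 2-fold, except 1 when the dimmest probe set stood for each gene, and at 1.5-fold 1 did. Of 118 values of named members, 15 moved by at least 0.1, all with another choice of probe set: Rpl24 turned from 0.19 to -0.05 with the mean of its probe sets and to -0.38 with the dimmest, and Rps15, Rpl27 and Rpl7a turned to -0.10, -0.16 and -0.16 with the dimmest. No paired analysis was possible because each group has 1 sample. Brightness limits the members under and near the floor, where background makes up part of the signal.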
